A study of Homo sapiens with 12 samples.

Results

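RNA of 60 genes for uptake carriers was followed in sorafenib-resistant and parental liver cancer cells. The genes were chosen by symbol: the SLC22A (organic ion), SLC47A (cation and drug extrusion), SLC10A (bile acid), SLC16A (monocarboxylate), SLC29A (nucleoside) and SLCO (organic anion) families, without antisense genes and pseudogenes, and they are 60 of the 27249 genes with an Ensembl identifier in the tables. Huh7 and HepG2 are 2 established human liver tumour lines, both labelled wild type. The 12 samples form 4 groups of 3: Huh7 resistant, Huh7 parental, HepG2 resistant and HepG2 parental. Sorafenib is a kinase inhibitor used against hepatocellular carcinoma. Per the labels, resistant cells had survived repeated exposure at increasing concentrations over 8 months, from a first dose of 10 μmol, with a change of medium after each exposure. The sources do not say whether the 3 samples of a group came from separate cultures or selections, so the p-values below measure the spread between these samples, which may be technical.

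Uptake carriers sit in the membranes of hepatocytes and set which small molecules enter from blood. SLC22A3 moves organic cations, SLC10A1 takes up conjugated bile acids, and the SLCO1B proteins take up bilirubin, statins and other organic anions. SLC29A proteins such as SLC29A1 and SLC29A2 let nucleosides equilibrate across membranes. The SLC16A family includes the lactate carriers SLC16A1 and SLC16A3, which need a partner protein to reach the cell surface, and also carriers of aromatic amino acids, carnitine and ketone bodies.

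The values are FPKM (reads scaled by exon length and sequencing depth), and 12290128 to 19285957 reads lay behind a library. Parental HepG2 was the shallowest group, with 12290128 to 15728850 reads. Within a group the libraries correlated at 0.981 to 0.991 (Pearson's r over all Ensembl genes). All 8 hepatocyte markers, among them ALB, AFP and APOA1, had a mean of at least 1 FPKM in each of the 4 groups. Their summed level was 7798 to 9674 FPKM in parental and 5123 to 5271 FPKM in resistant Huh7 cells, and 4878 to 6023 against 3816 to 4089 FPKM in HepG2 cells. The members did not move together: in Huh7 cells the mean of AFP was 5332 FPKM in parental and 2291 FPKM in resistant samples, while that of APOA1 was 92.4 and 175 FPKM, and in HepG2 cells AFP had 1394 and 366 FPKM and APOA1 130 and 249 FPKM. Of 4 leukocyte, 4 fibroblast and 3 endothelial markers, at most 2 of any list reached a mean of 1 FPKM in a group, and the summed levels stayed at or below 7.55, 2.58 and 3.66 FPKM. Of 3 biliary markers, 2 reached 1 FPKM in each group. Their summed level was 77.5 to 99.9 FPKM in parental and 114 to 131 FPKM in resistant Huh7 cells, and 122 to 167 against 85.1 to 114 FPKM in HepG2 cells. These sums join opposite shifts, since the mean of KRT19 went from 7.18 FPKM in parental to 70.4 FPKM in resistant Huh7 cells and that of SOX9 from 78.1 to 52.3 FPKM, and in HepG2 cells they went from 7.19 to 13.4 and from 133 to 87.1 FPKM. Of 3 markers of the kidney proximal tubule, a tissue rich in the same carriers, 1 reached 1 FPKM in Huh7 cells, with a sum of 7.85 to 8.36 FPKM in parental and 2.88 to 3.33 FPKM in resistant cells, and none did in HepG2 cells. The part of these shifts in the carrier results was not tested.

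Between 24 and 31 of the 60 carriers had a mean of at least 1 FPKM in a group, and 8 or 9 had at least 10 FPKM. The most abundant carrier was the nucleoside carrier SLC29A2 in both Huh7 groups and the lactate carrier SLC16A1 in both HepG2 groups. The tests took the carriers that reached 1 FPKM in 3 or more of a line's 6 samples, which left 31 in Huh7 and 28 in HepG2 cells, 24 of them in both. Another 25 were tested in neither line, and 24 of those 25 stayed under 1 FPKM in every sample. Among the carriers known from ileum or kidney, SLC10A2, SLC22A6, SLC22A8 and SLC22A12 stayed at or below 0.069 FPKM throughout. Others such as SLC22A11, SLC47A1 and SLCO4C1 were expressed in some or all groups (values below). SLC47A1 reached a mean of 1 FPKM in every group, SLCO4C1 in all but resistant HepG2 cells, and SLC22A11 in parental HepG2 cells only.

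**Figure D1:**
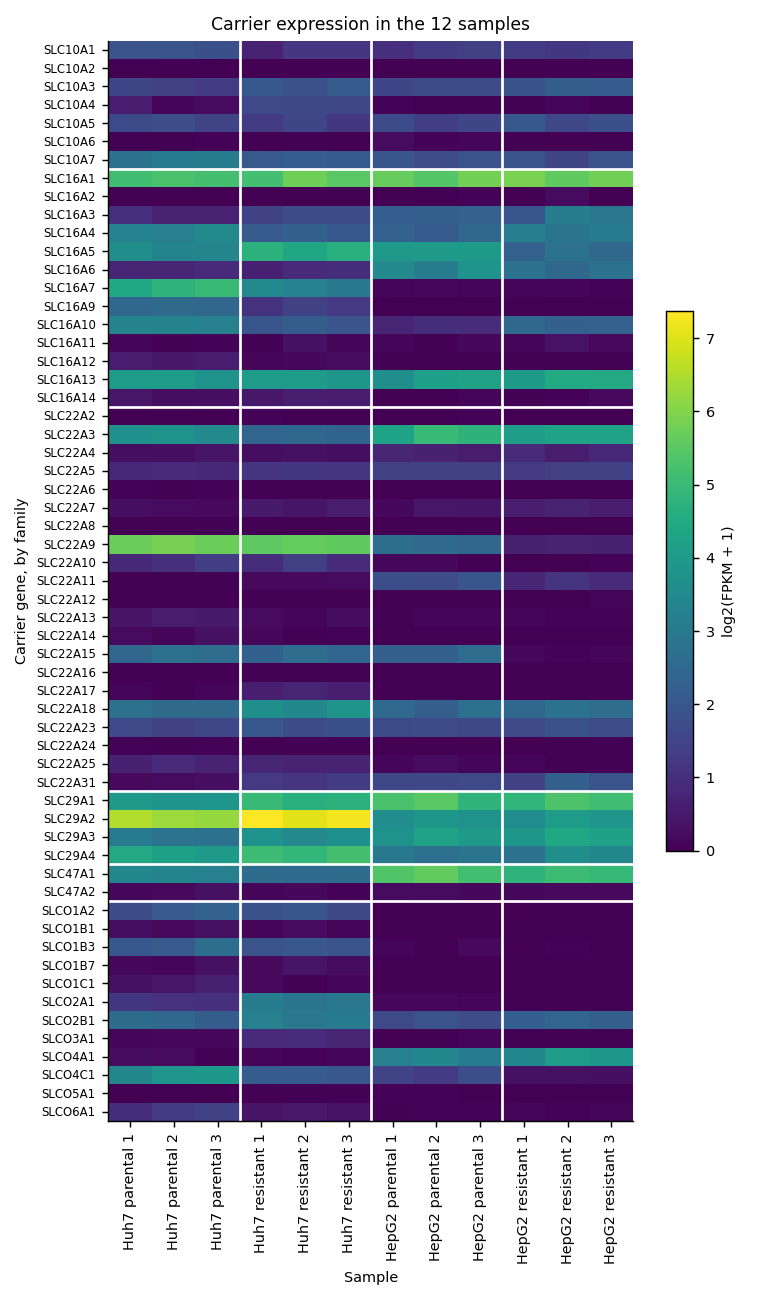
Level of 59 of the 60 carriers in the 12 samples, as log2(FPKM + 1), with genes in rows grouped by family and samples in columns grouped by line and condition. The brightest cells are SLC29A2 in resistant Huh7 cells, at 131 to 165 FPKM, and SLC16A7, SLC16A9, SLC22A9, SLCO1A2 and SLCO1B3 are brighter in Huh7 than in HepG2 columns.

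The comparison of resistant with parental cells asks which carriers differ after long selection with sorafenib. A carrier is called changed where limma's adjusted p is under 0.05 and the log2 fold change lies above 1 or below -1. All log2 fold changes are on the log2(FPKM + 1) scale, which understates the change of low genes. In bulk samples, fewer cells that express a gene and less RNA per cell cannot be told apart. In Huh7 cells 10 of 31 carriers tested were called, 4 higher and 6 lower in resistant cells, or 32.3% against 22.6% of all 12554 genes tested (8.59% higher and 14.0% lower). In HepG2 cells 5 of 28 were called, 1 higher and 4 lower, or 17.9% against 6.27% of all 11762 genes (3.29% higher and 2.98% lower). The median log2 fold change over the carriers tested was 0.05 in Huh7 and 0.08 in HepG2 cells, against -0.04 and 0.12 over all genes. Of the 5 carriers called in HepG2 cells, 4 had passed the filter only through the group where they were high, as had 1 of the 10 in Huh7 cells, so these counts do not stand for all 60 carriers. Together 12 carriers were called, 3 of them in both lines: SLC16A10 and SLC16A5 in opposite directions, and SLCO4C1 lower in both.

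**Figure D2:**
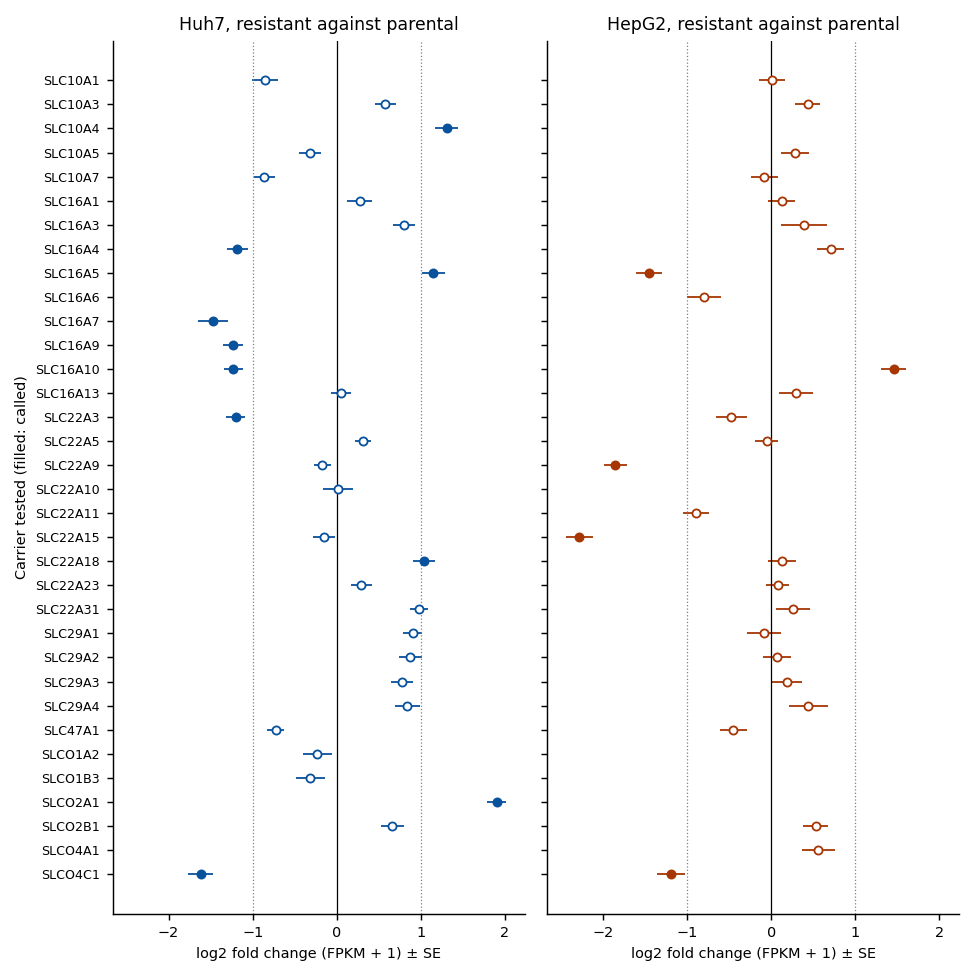
Log2 fold change of the carriers tested, resistant against parental, in Huh7 (left) and HepG2 cells (right), with bars for the standard error, filled points for carriers called and dotted lines at 1 and -1. SLC16A10 and SLC16A5 lie on opposite sides of 0 in the 2 panels, and SLCO4C1 lies below -1 in both.

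In Huh7 cells the change of a gene moved with the GC content of its transcript. Across 12554 genes Spearman's rho between log2 fold change and GC was 0.62, and across the 31 carriers it was 0.76, as a description over genes that share the same 6 libraries. The 13 carriers with an adjusted p under 0.05 and a higher level had a median GC of 60%, and the 9 with a lower level 40.7%. With the GC trend of each library taken off, 2 of the 31 carriers were called in Huh7 cells, SLC22A3 (lower) and SLCO2A1 (higher), and the share of all genes called was 11.9%. In HepG2 cells rho was 0.04 over all genes and 0.27 over the 28 carriers, and 6 carriers were called without the trend, the 5 above and SLC22A11, with 6.15% of all genes called. The source of the GC trend was not tested, and each carrier called in Huh7 cells is given below also without it.

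**Figure D3:**
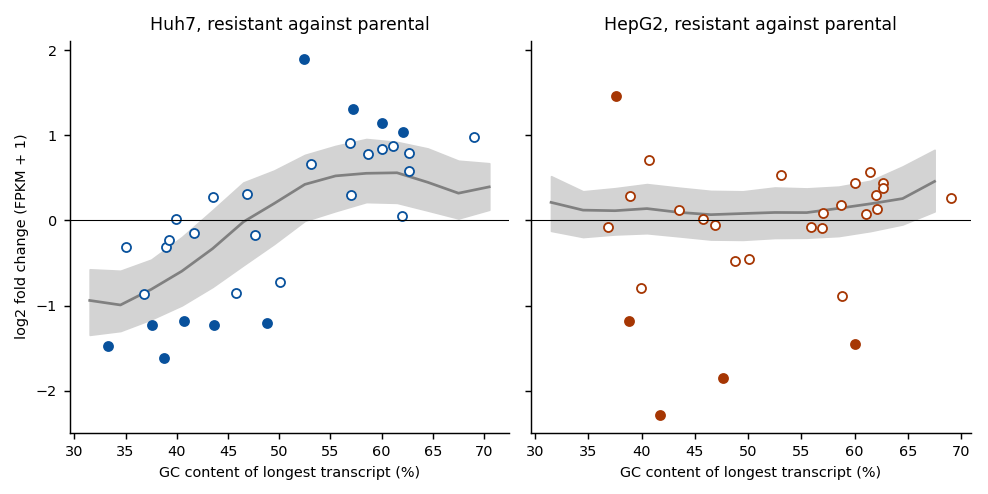
Log2 fold change of the carriers tested against the GC content of their longest transcript in percent, in Huh7 (left) and HepG2 cells (right), with filled points for carriers called and, over all genes tested, the median (line) and middle 50% (band) in bins of GC. In Huh7 cells the band climbs from below 0 at low GC to above 0 at high GC, and the 6 carriers called lower have 33.3% to 48.8% GC while the 4 called higher have 52.4% to 62.1%. In HepG2 cells the median stays above 0 at every GC content.

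Among the monocarboxylate carriers, 8 of 13 were tested in Huh7 cells, where 1 rose and 4 fell, and 7 in HepG2 cells, where 1 rose and 1 fell. SLC16A10, a carrier of aromatic amino acids also called TAT1, lies on chromosome 6 from 111087503 to 111231194 on the plus strand (GRCh38, as in the tables). Its level was 8.88, 8.76 and 8.34 FPKM in parental Huh7 cells and 2.96, 3.56 and 2.87 FPKM in resistant ones. HepG2 cells had 0.691, 0.963 and 0.911 FPKM in parental and 4.53, 3.77 and 3.97 FPKM in resistant samples. Parental and resistant samples were separate in both lines, with the resistant samples lower in Huh7 and higher in HepG2 cells. The log2 fold change was -1.23 (SE 0.11, adjusted p = 4.88e-05) in Huh7 and 1.46 (SE 0.14, adjusted p = 0.000735) in HepG2 cells. In HepG2 cells SLC16A10 passed the filter through the resistant samples alone and was not tested once any one of them was left out, while with no filter the adjusted p was 0.00703. The difference of the changes, Huh7 minus HepG2, was -2.69 (SE 0.15, adjusted p = 3.88e-07). Without the GC trend the Huh7 change was -0.41 and no longer called, while the HepG2 change was 1.36 and the difference between the lines -1.79, both still called.

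The bases before the SLC16A10 start are shown because this gene had the largest difference between the lines among the 35 carriers tested for it. RefSeq (GRCh38.p14) gives the 250 bases of the plus strand at chr6:111087253-111087502, with the match to GGGCGG, the core of the GC box bound by SP factors, in capitals.
SLC16A10: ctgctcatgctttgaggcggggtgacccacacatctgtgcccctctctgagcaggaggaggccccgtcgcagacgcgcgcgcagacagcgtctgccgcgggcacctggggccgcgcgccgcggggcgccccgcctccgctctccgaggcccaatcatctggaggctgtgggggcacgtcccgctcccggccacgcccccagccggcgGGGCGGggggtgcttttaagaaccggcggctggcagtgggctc
It holds 28 CpG dinucleotides, against a median of 11 over 27305 promoters, and 74.4% of its bases are G or C. GGGCGG on either strand was found in 42.3% of all promoters. The window held no match on either strand to the TATA box TATAAA (11.1% of promoters), to the motif GTTAAT that is part of the site of HNF1 factors (6.2%), to the FOXA motif TGTTTAC (3.0%) or to the E-box CACGTG (6.5%). The RefSeq table held a promoter for 38 of the 60 carriers, of which 17 (44.7%) contain GGGCGG.

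SLC16A5, also called MCT6 and known as a carrier of drugs such as bumetanide, had the reverse pattern. Its level was 11.5, 9.09 and 9.28 FPKM in parental Huh7 cells and 25.7, 19.5 and 24.6 FPKM in resistant ones. HepG2 levels were 14.5, 15.0 and 15.2 FPKM in parental and 4.01, 5.88 and 4.67 FPKM in resistant samples. Parental levels of both lines lay within 9.09 to 15.2 FPKM, while the resistant ones lay above that range in Huh7 and below it in HepG2 cells. The log2 fold change was 1.15 (SE 0.14, adjusted p = 0.000175) in Huh7 and -1.45 (SE 0.15, adjusted p = 0.000895) in HepG2 cells, and their difference was 2.60 (SE 0.20, adjusted p = 3.57e-06). Without the GC trend the Huh7 value was 0.61, no longer called, and the HepG2 value -1.61.

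SLC16A4, an orphan member, was 8.71, 8.21 and 10.4 FPKM in parental and 3.35, 3.91 and 3.07 FPKM in resistant Huh7 cells. The HepG2 samples had 3.94, 3.26 and 4.58 FPKM in parental and 7.94, 6.08 and 7.14 FPKM in resistant samples. The groups again moved apart in opposite directions without overlap. The Huh7 change was -1.18 (SE 0.13, adjusted p = 0.000104), and the HepG2 change of 0.71 (SE 0.16, adjusted p = 0.0189) was short of the fold limit. The difference between the lines was -1.90 (SE 0.20, adjusted p = 2.33e-05), and without the GC trend the Huh7 value was -0.60, no longer called.

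SLC16A7 (MCT2), a pyruvate and lactate carrier of high affinity, and SLC16A9, a carrier of carnitine and creatine, were at 0.107 FPKM or less in every HepG2 sample. SLC16A7 was 20.3, 26.6 and 30.7 FPKM in parental and 10.5, 8.61 and 6.94 FPKM in resistant Huh7 cells, a log2 fold change of -1.47 (SE 0.18, adjusted p = 0.000187). The HepG2 level of SLC16A7 was 0.0553 to 0.107 FPKM over all 6 samples, or 13 to 22 reads. SLC16A9 was 4.54, 4.80 and 4.39 FPKM in parental and 1.12, 1.69 and 1.35 FPKM in resistant Huh7 cells, a change of -1.23 (SE 0.12, adjusted p = 7.38e-05). It had 0 to 3 reads in every HepG2 sample. Both genes fell in resistant Huh7 cells, and without the GC trend their values were -0.44 and -0.92, no longer called. At such HepG2 levels the log2(FPKM + 1) scale holds the HepG2 change near 0, so their differences between the lines, -1.42 for SLC16A7 and -1.24 for SLC16A9, largely restate the Huh7 change, and with limma-voom on the reads they did not pass (adjusted p = 0.122 and 0.107).

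The lactate carriers SLC16A1 and SLC16A3 were not called in either line, SLC16A3 by the fold limit alone in Huh7 cells. SLC16A1 (MCT1) had 33.7 to 37.0 FPKM in parental and 35.0 to 52.3 FPKM in resistant Huh7 cells, with a log2 fold change of 0.27 (SE 0.15, adjusted p = 0.129), and 41.6 to 55.6 against 46.7 to 58.6 FPKM in HepG2 cells, a change of 0.13 (SE 0.16, adjusted p = 0.60). Its groups overlapped in both lines. SLC16A3 (MCT4), which exports lactate from glycolytic cells, was 1.00, 0.634 and 0.654 FPKM in parental and 1.71, 2.24 and 2.23 FPKM in resistant Huh7 cells, a change of 0.80 (SE 0.13, adjusted p = 0.000784). The resistant mean was 2.70 times the parental one, and the change was past the fold limit at a pseudocount of 0.1 (1.34, adjusted p = 0.00129) and with limma-voom on the reads (1.44, adjusted p = 3.07e-08), but 0.29 (adjusted p = 0.0893) without the GC trend. The HepG2 values were 3.62 to 4.01 and 2.92 to 7.69 FPKM, with a change of 0.39 (SE 0.27, adjusted p = 0.343). SLC16A3 shares 482 exon bases with CSNK1D on the opposite strand, whose reads cannot be told apart in libraries that do not mark strand. Among the other members, SLC16A6 (MCT7), an exporter of ketone bodies, was 7.53 to 12.9 FPKM in parental and 4.46 to 5.79 FPKM in resistant HepG2 cells, and 0.597 to 0.958 FPKM in Huh7 cells. Its HepG2 change was -0.80 (SE 0.20, adjusted p = 0.027), short of the fold limit. SLC16A6 shares 144 exon bases with ARSG on the opposite strand.

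Of the 22 organic ion carriers of the SLC22A family, 8 were tested in Huh7 cells, where 1 rose and 1 fell, and 9 in HepG2 cells, where 2 fell. SLC22A3 (OCT3), a carrier of organic cations and monoamines, was 11.9, 12.5 and 10.0 FPKM in parental and 4.33, 4.68 and 4.19 FPKM in resistant Huh7 cells. The groups did not overlap, and the log2 fold change was -1.20 (SE 0.11, adjusted p = 6.45e-05), or -1.35 without the GC trend. OCT3 RNA in HepG2 cells was 18.5, 30.2 and 26.4 FPKM in parental and 16.3, 18.1 and 17.9 FPKM in resistant samples, a change of -0.47 (SE 0.19, adjusted p = 0.107) that did not pass the test. The difference between the lines was -0.73 (SE 0.22, adjusted p = 0.0142).

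SLC22A18, a member of the imprinted cluster on chromosome 11, rose in Huh7 cells. Its level was 5.66, 4.82 and 4.87 FPKM in parental and 11.7, 9.90 and 13.2 FPKM in resistant cells, with a log2 fold change of 1.04 (SE 0.13, adjusted p = 0.000183). Without the third resistant Huh7 sample the value was 0.95 and without the GC trend 0.53, and neither was called. In HepG2 cells the 6 values lay between 3.69 and 5.70 FPKM, with overlap. SLC22A18 shares 227 exon bases with its antisense gene SLC22A18AS.

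SLC22A15, a carrier of carnitine and other zwitterions, had the largest fall among the carriers in HepG2 cells. Its level was 3.78, 3.75 and 5.25 FPKM (244 to 437 reads) in parental and 0.112, 0.0413 and 0.0659 FPKM (4 to 10 reads) in resistant HepG2 cells. The parental mean was 58.5 times the resistant one, and the log2 fold change was -2.28 (SE 0.16, adjusted p = 0.000173). The Huh7 values were 4.42, 5.54 and 5.20 FPKM in parental and 3.89, 5.16 and 4.33 FPKM in resistant samples, a change of -0.15 (SE 0.13, adjusted p = 0.319) with overlapping groups. The difference between the lines was 2.13 (SE 0.19, adjusted p = 8.64e-06), and of the HepG2 samples only the 3 parental ones reached 1 FPKM, so that it was not tested in HepG2 cells once any one of them was left out. With no filter the HepG2 adjusted p was 0.00355.

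The gene lies on chromosome 1 from 115976498 to 116070054 on the plus strand, and the bases before its start are shown because 1 group of the 4 had 4 to 10 reads of it per sample while the others had at least 244. RefSeq (GRCh38.p14) gives these 235 bases at chr1:115976263-115976497, with matches to GGGCGG or its reverse complement CCGCCC in capitals.
SLC22A15: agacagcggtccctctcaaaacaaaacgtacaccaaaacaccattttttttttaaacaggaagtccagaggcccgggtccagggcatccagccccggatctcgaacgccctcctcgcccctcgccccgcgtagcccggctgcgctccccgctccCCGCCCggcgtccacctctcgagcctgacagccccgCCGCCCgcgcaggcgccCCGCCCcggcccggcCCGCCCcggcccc
It holds 4 such matches, and the window of 250 bases from which it was cut holds 30 CpG dinucleotides. The other motifs named above were not found in it.

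The neighbouring genes were looked at after the value of SLC22A15 had been seen. MAB21L3, which starts 41701 bases downstream, was 4.35, 4.75 and 3.94 FPKM in parental and 0.725, 0.655 and 0.232 FPKM in resistant HepG2 cells (log2 fold change -1.81, SE 0.17, adjusted p = 0.000608). VANGL1 on the other side was 3.18 to 4.64 FPKM in parental and 6.70 to 7.82 FPKM in resistant cells (0.76, SE 0.16, adjusted p = 0.0129). CD58 farther downstream had a change of 0.10 (adjusted p = 0.796), with overlapping groups. Resistant HepG2 cells were thus lower in SLC22A15 and in MAB21L3, and were not lower in VANGL1. The copy number of this region was not measured.

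**Figure D4:**
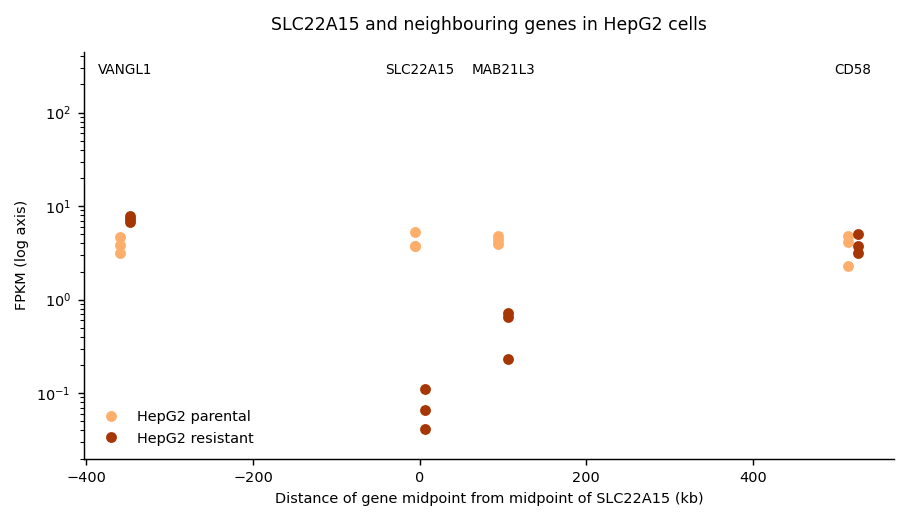
FPKM (log axis) of SLC22A15 and of selected genes within 500 kb with at least 1 FPKM in a HepG2 sample, against the distance of gene midpoints in kb, with 3 parental and 3 resistant samples as points. The resistant points lie below the parental ones for SLC22A15 and MAB21L3, at 0.0413 to 0.112 and 0.232 to 0.725 FPKM, and not for the other genes drawn.

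SLC22A9 (OAT7), an anion carrier of hepatocytes, was 50.5, 57.3 and 51.4 FPKM in parental Huh7 cells and lay between 45.3 and 48.2 FPKM in resistant ones, a log2 fold change of -0.17 (SE 0.10, adjusted p = 0.151). In contrast, HepG2 cells had 5.29, 4.79 and 4.44 FPKM (139 to 165 reads) in parental and 0.575, 0.672 and 0.590 FPKM (23 to 29 reads) in resistant samples. The HepG2 groups were far apart, with a change of -1.85 (SE 0.14, adjusted p = 0.000211). SLC22A9 passed the HepG2 filter through the parental samples alone and was not tested once any one of them was left out, while with no filter the adjusted p was 0.00355. The difference between the lines was 1.68 (SE 0.13, adjusted p = 3.41e-06). SLC22A11 (OAT4), a carrier of steroid sulphates and urate, was 2.41, 2.35 and 2.91 FPKM in parental and 0.735, 1.17 and 0.857 FPKM in resistant HepG2 cells. Its change of -0.89 (SE 0.15, adjusted p = 0.00685) was short of the fold limit, and in Huh7 cells it had 1 to 3 reads in parental and 13 to 15 in resistant samples.

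SLC22A7 (OAT2) stayed between 0.108 and 0.620 FPKM in all samples and was tested in neither line. It was 0.140 to 0.237 FPKM (8 to 15 reads) in parental and 0.338 to 0.507 FPKM (23 to 34 reads) in resistant Huh7 cells. The HepG2 values were 0.108 to 0.369 FPKM (5 to 19 reads) and 0.461 to 0.620 FPKM (28 to 40 reads). At these low counts the resistant samples lay above the parental ones in both lines. SLC22A7 shares 148 exon bases with CRIP3 on the opposite strand. SLC22A5 (OCTN2), the high-affinity carnitine carrier, was 0.789 to 0.845 FPKM in parental and 1.19 to 1.29 FPKM in resistant Huh7 cells (0.31, SE 0.10, adjusted p = 0.0199), and 1.34 to 1.73 FPKM over the 6 HepG2 samples. SLC22A5 passed the Huh7 filter through the resistant samples alone, the group where it was high.

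SLC47A1 (MATE1) extrudes the cations that SLC22A carriers take up. It was 9.67, 9.01 and 8.34 FPKM in parental and 5.05, 4.97 and 5.10 FPKM in resistant Huh7 cells, a log2 fold change of -0.73 (SE 0.10, adjusted p = 0.000328), short of the fold limit, and -0.97 without the GC trend. The HepG2 level was 40.0, 48.0 and 34.5 FPKM in parental and 26.5, 32.5 and 29.6 FPKM in resistant samples, a change of -0.45 (SE 0.16, adjusted p = 0.0845). The resistant values lay below the parental ones in both lines, and the HepG2 level was the higher in each condition. SLC47A2 stayed at or below 0.268 FPKM.

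Of the 7 bile acid carriers and their relatives (SLC10A), 5 were tested in Huh7 cells, where 1 rose, and 4 in HepG2 cells, where none was called. SLC10A1 (NTCP), the sodium-dependent uptake carrier of bile acids in hepatocytes, was 2.72, 2.78 and 2.48 FPKM (82 to 100 reads) in parental and 0.617, 1.27 and 1.26 FPKM (24 to 50 reads) in resistant Huh7 cells. The groups were separate, and the log2 fold change was -0.85 (SE 0.15, adjusted p = 0.00109), short of the fold limit at a pseudocount of 1 and beyond it at 0.1 (-1.33). In HepG2 cells it was 1.00, 1.47 and 1.61 FPKM in parental and 1.41, 1.28 and 1.42 FPKM in resistant samples, a change of 0.01 (SE 0.16, adjusted p = 0.959) whose sign turned with scaling. The difference between the lines was -0.87 (SE 0.20, adjusted p = 0.00379). SLC10A4, a relative found in synaptic vesicles, was 0.467, 0.0663 and 0.173 FPKM (2 to 15 reads) in parental and 2.12, 2.00 and 1.97 FPKM (67 to 72 reads) in resistant Huh7 cells. It rose by 1.31 on the log2 scale (SE 0.14, adjusted p = 9.31e-05), passed the filter through the resistant samples alone, and was 0.78 and not called without the GC trend. In HepG2 cells it had 0 to 3 reads per sample. SLC10A7 was 5.81 to 7.65 FPKM in parental and 3.20 to 3.59 FPKM in resistant Huh7 cells, a change of -0.86 (SE 0.12, adjusted p = 0.000393) that was 0.01 without the GC trend.

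Of the 12 SLCO carriers, 5 were tested in Huh7 cells, where 1 rose and 1 fell, and 3 in HepG2 cells, where 1 fell. SLCO4C1, known from the kidney as a carrier of digoxin and thyroid hormone, is the one carrier called lower in both resistant lines. It was 9.51, 13.3 and 14.2 FPKM (910 to 1221 reads) in parental and 3.45, 3.44 and 2.97 FPKM (301 to 354 reads) in resistant Huh7 cells. The HepG2 samples of SLCO4C1 had 1.87, 1.39 and 2.40 FPKM (91 to 201 reads) in parental and 0.266, 0.267 and 0.229 FPKM (21 to 26 reads) in resistant samples. Every resistant sample lay below every parental one of its line. The log2 fold change was -1.62 (SE 0.15, adjusted p = 6.24e-05) in Huh7 and -1.19 (SE 0.17, adjusted p = 0.00287) in HepG2 cells, and the HepG2 test was reached through the parental samples alone. It was not made once any one of those was left out, and with no filter the adjusted p was 0.0146. The difference of -0.43 (SE 0.22, adjusted p = 0.116) did not pass the test, and its sign turned with other measures: the parental mean was 3.75 times the resistant one in Huh7 and 7.43 times in HepG2 cells, and the difference was 0.97 (adjusted p = 0.0401) with limma-voom on the reads and 0.39 (adjusted p = 0.0618) without the GC trend. Without the GC trend the Huh7 value was -0.88, no longer called.

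SLCO2A1, the prostaglandin carrier, had the largest rise among the carriers in Huh7 cells. It was 1.29, 1.06 and 1.01 FPKM in parental and 7.64, 6.29 and 6.80 FPKM in resistant Huh7 cells. The resistant mean was 6.19 times the parental one, with a log2 fold change of 1.90 (SE 0.12, adjusted p = 1.16e-05), and 1.53, still called, without the GC trend. In HepG2 cells it was 0.115, 0.108 and 0.0722 FPKM in parental and 0.0223, 0.0311 and 0.0220 FPKM in resistant samples, low values in the opposite order. The difference between the lines was 2.00 (SE 0.13, adjusted p = 1.15e-06).

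Of the liver-specific SLCO carriers, SLCO1B1 was low in both lines and SLCO1B3 in HepG2 cells. SLCO1B1 (OATP1B1) had 5 to 9 reads in parental and 3 to 8 reads in resistant Huh7 cells and 0 reads in all 6 HepG2 samples, where 3 reads, the limit that a count of 0 allows, would be 0.074 to 0.11 FPKM; this limit covers counting error only. SLCO1B3 (OATP1B3) was 3.12, 3.13 and 5.28 FPKM in parental and 2.71, 3.03 and 2.72 FPKM in resistant Huh7 cells, a log2 fold change of -0.31 (SE 0.17, adjusted p = 0.132), and had 0 to 8 reads in HepG2 samples. Without the GC trend the sign of the Huh7 value turned, to 0.64 (adjusted p = 0.00267). SLCO1B3 shares 1930 exon bases with the overlapping gene AC011604.2 on the same strand, and SLCO1B1 shares 300 with AC022335.1. The reads of both carriers are therefore uncertain. SLCO2B1 (OATP2B1), a carrier of steroid sulphates and statins, was 5.03, 4.47 and 3.53 FPKM in parental and 8.20, 6.60 and 7.39 FPKM in resistant Huh7 cells, and 2.08, 2.72 and 2.33 against 3.59, 4.26 and 3.73 FPKM in HepG2 cells. Its resistant samples lay above the parental ones in both lines, with changes of 0.66 (SE 0.14, adjusted p = 0.00275) and 0.53 (SE 0.14, adjusted p = 0.0358), both short of the fold limit. SLCO2B1 has 53.1% GC. Over all genes in the bin around 52.5% GC the median change was 0.42 in Huh7 and 0.09 in HepG2 cells. SLCO4A1, a thyroid hormone carrier, was 7.44 to 9.60 FPKM in parental and 9.49 to 15.5 FPKM in resistant HepG2 cells, with overlap, and 0.0306 to 0.179 FPKM in Huh7 cells.

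**Figure D5:**
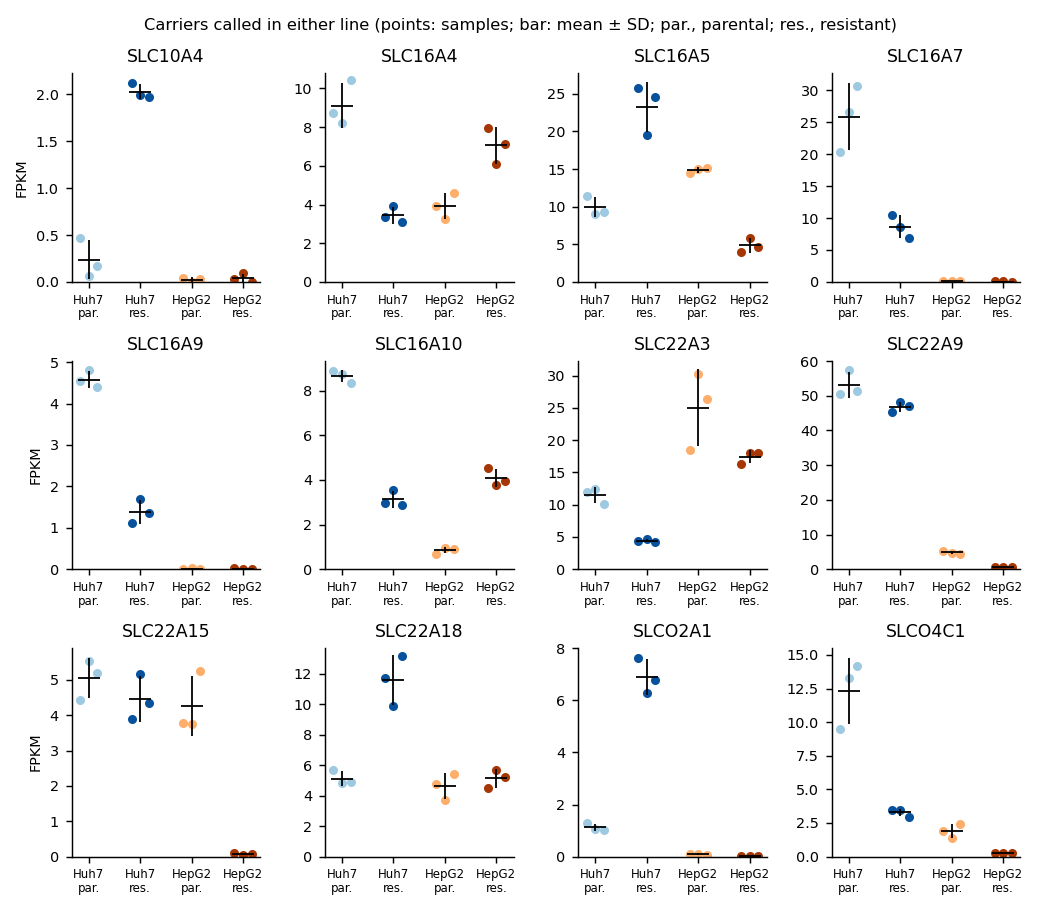
FPKM of the 12 carriers called in either line, with 1 panel per gene, 1 point per sample and a bar for the mean ± SD of the 3 samples of each group. Resistant and parental points do not overlap in any line in which a carrier was called, and SLC16A10 and SLC16A5 move in opposite directions in Huh7 and HepG2 cells.

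All 4 carriers of the SLC29A family were expressed in both lines and none was called. In Huh7 cells each had a higher level in resistant cells, with an adjusted p under 0.05 and log2 fold changes of 0.77 to 0.90. SLC29A2 (ENT2) was 91.6, 76.8 and 72.9 FPKM in parental and 165, 131 and 149 FPKM in resistant Huh7 cells (0.88, SE 0.13, adjusted p = 0.000545), and 10.9 to 15.8 FPKM over the 6 HepG2 samples. SLC29A1 (ENT1), the main route of nucleoside drugs into many cells, was 14.5, 13.1 and 13.7 FPKM in parental and 30.4, 24.1 and 25.6 FPKM in resistant Huh7 cells (0.90, SE 0.11, adjusted p = 0.000213). In HepG2 cells SLC29A1 was 36.9, 44.0 and 27.0 FPKM in parental and 28.1, 38.4 and 33.5 FPKM in resistant samples, a change of -0.09 (SE 0.20, adjusted p = 0.782) with overlap. The summed level of the 4 genes was 118 ± 14.2 FPKM (SD, n = 3) in parental and 219 ± 23.4 FPKM in resistant Huh7 cells, and 69.8 ± 10.5 and 73.1 ± 13.7 FPKM in HepG2 cells. Their transcripts are GC-rich, and without the GC trend the Huh7 values were 0.23 to 0.38, each with an adjusted p still under 0.05.

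With the fold limit set aside, 22 of 31 carriers had an adjusted p under 0.05 in Huh7 cells, 13 higher and 9 lower, or 71.0% against 70.1% of all genes (32.7% higher and 37.4% lower), so the carriers stood close to the background. In HepG2 cells 9 of 28 did, 3 higher and 6 lower, or 32.1% against 20.0% (11.6% higher and 8.43% lower). The resistant and parental samples did not overlap for 25 of 31 carriers in Huh7 cells (80.6% against 74.5% of all genes) and for 12 of 28 in HepG2 cells (42.9% against 40.4%).

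The test of the difference between the lines asks whether a carrier changed differently in Huh7 and HepG2 cells. Of 35 carriers tested over all 12 samples, 22 passed at an adjusted p under 0.05, or 62.9% against 56.3% of all 13800 genes. Without the GC trend 25 of the 35 passed, 18 of them among these 22, against 55.7% of all genes. For 13 of the 22 the Huh7 change was the more positive and for 9 the more negative, and 10 of the 22 differed by more than 1 on the log2 scale. Among the SLC22A carriers 7 of 10 passed, 6 with the more positive Huh7 change, among the SLC16A carriers 6 of 9 and among the SLC29A carriers 3 of 4.

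The parental lines already differed. Of 33 carriers tested, 20 were called between parental Huh7 and parental HepG2 cells, 11 higher in Huh7 and 9 lower, or 60.6% against 31.9% of all 12796 genes (19.4% higher and 12.5% lower). Of these 20, SLC16A10, SLC16A7, SLC16A9, SLCO1A2 and SLCO1B3 passed the filter through the Huh7 samples alone. SLC16A6, SLC22A11, SLC22A31 and SLCO4A1 passed it through the HepG2 samples alone. The share called therefore does not stand for all carriers, and with a sample left out 13 to 16 were called. At an adjusted p under 0.05 alone 26 differed, 14 higher and 12 lower, or 78.8% against 65.2% (39.0% higher and 26.2% lower), and the samples of 26 did not overlap, or 78.8% against 70.0%. SLC16A7 was 25.9 ± 5.25 FPKM (SD, n = 3) in parental Huh7 and 0.101 ± 0.0063 FPKM in parental HepG2 cells (log2 fold change 4.59, SE 0.17, adjusted p = 3.20e-07). SLC22A9 was 11.0 times and SLC29A2 6.37 times as high in Huh7 as in HepG2 cells, with changes of 3.21 and 2.58. Higher in HepG2 cells were SLCO4A1 (-3.06, SE 0.14, adjusted p = 7.24e-07), SLC16A6 (-2.64) and SLC47A1 (-2.05, SE 0.15, adjusted p = 9.20e-06). The parental samples are also the controls of the comparisons above, so these differences and those changes are not independent.

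Some carriers below the filter still had separate groups in Huh7 cells, and SLCO3A1, SLC22A17 and SLCO6A1 were picked from them after their values were seen. Others were separate too, such as SLC22A7 and SLC16A14 (higher in resistant cells) and SLC16A12, SLC22A13 and SLCO1C1 (lower). Of all genes tested in Huh7 cells, 74.5% had groups that did not overlap. SLCO3A1 had 16 to 19 reads in parental and 123 to 169 reads in resistant cells, and SLC22A17 had 2 to 6 and 43 to 58 reads. Both exceeded 3 reads in resistant cells, but none of their samples reached 1 FPKM, and without the filter their log2 fold changes were 0.72 (SE 0.07, adjusted p = 0.000952) and 0.58 (SE 0.06, adjusted p = 0.00113). SLCO6A1, known from testis, had 51 to 83 reads in parental and 16 to 24 in resistant cells, a change of -0.82 (SE 0.14, adjusted p = 0.00522) without the filter. The GC contents of SLCO3A1, SLC22A17 and SLCO6A1 were 50.9%, 64.4% and 40.2%. For carriers below the filter no fit without the GC trend was made.

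These comparisons keep the GC trend. The 33 partner genes of these carriers comprise exporters, bile acid enzymes, chaperones and liver transcription factors. Of these, 24 were tested in Huh7 and 23 in HepG2 cells. In Huh7 cells 4 were called higher and none lower, against 8.59% and 14.0% of all genes. In HepG2 cells none was called higher and 3 lower, against 3.29% and 2.98%. At an adjusted p under 0.05 alone, 11 were higher and 3 lower in Huh7 cells, against 32.7% and 37.4% of all genes. By the same measure 2 were higher and 4 lower in HepG2 cells, against 11.6% and 8.43%. In Huh7 cells SLC51B, a subunit of the bile acid exporter of the basolateral membrane, was 12.5, 8.08 and 8.69 FPKM in parental and 53.4, 42.0 and 54.9 FPKM in resistant samples (2.26, SE 0.17, adjusted p = 2.86e-05). The drug exporter ABCG2 rose by 1.61 (SE 0.11, adjusted p = 1.98e-05) in Huh7 cells, but its HepG2 change was -0.62 (adjusted p = 0.014). Other exporters had an adjusted p under 0.05 in Huh7 cells but were short of the fold limit. They were SLC51A (0.58) and ABCC2 (0.60), which were higher, and ABCC4 (-0.61) and ABCB1 (-0.74), which were lower. The transcription factors NR1I2 (PXR), a xenobiotic sensor, and FOXA3 rose by 1.02 and 1.32 in Huh7 cells. In HepG2 cells the exporters ABCC3 and ABCC4 fell by 1.32 and 1.32, and NR0B2 (SHP), a repressor in bile acid feedback, fell by 1.01 (SE 0.18, adjusted p = 0.00786). BSG, the chaperone of SLC16A1 and SLC16A3, was not called in either line (0.56, adjusted p = 0.0503 in Huh7, and 0.70, adjusted p = 0.157 in HepG2 cells).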

How the data were processed

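RNA of 12 samples was sequenced, with 3 samples in each of 4 groups taken from the sample labels. Per the labels, libraries were made with a NEBNext Ultra kit, which does not mark strand. The labels name an RNeasy kit and the study's methods TRIzol for RNA. The submitters' processing notes name bcl2fastq and GRCh38, and the aligner and counter are not given in the sources used here. The deposited values are decimals with no named unit. The authors had scaled them by gene length and depth, and they are called FPKM here, since RPKM and FPKM cannot be told apart. With GENCODE release 29 exon lengths, which cover 27234 of 27249 Ensembl genes, 96.4% of values of up to 2000 reads were within 0.05 of a whole read, and reads were calculated back from them except for 3 carriers (SLC22A13, SLCO1B7 and SLCO2A1). The 71462 other rows were not used.

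Genes that reached 1 FPKM in 3 or more samples of a fit were tested on log2(FPKM + 1) with limma 3.58.1 (R 4.3.3), with a trend of variance on mean expression and Benjamini-Hochberg adjusted p-values over all genes tested, with Python 3.11.15 and pandas 2.3.3 for tables and matplotlib 3.10.9 for plots. A change was called at an adjusted p under 0.05 and a log2 fold change beyond 1, and a difference between lines at an adjusted p under 0.05. Named are the carriers called in a line and 11 carriers fixed by name (SLC22A3, SLC22A7, SLC22A9, SLC10A1, SLCO1B1, SLCO1B3, SLCO2B1, SLC47A1, SLC16A1, SLC16A3 and SLC29A1), with some that passed the test between lines; others named were chosen after their values were seen. A further carrier fixed by name and a neighbouring gene are not reported here, and plots with gene names leave them out, but the counts over all carriers hold that carrier. The carriers, gene lists and tests were chosen with earlier results of these data known. On simulated data 99.5% of 200 changed genes were recovered in each line, with 2 other genes called in Huh7 and 5 in HepG2 cells. This share and the numbers of other genes called hold only for the changes and settings that were simulated. The fits were repeated with a pseudocount of 0.1, without the filter, with median-ratio or upper-quartile scaling, with limma-voom on the reads, without the variance trend, after each library's GC trend had been taken off (lowess, span 0.3), with the replicate number as a block, with all 12 samples in one fit, with no fold limit and without each sample. Intervals and limits from reads cover counting error only, since no molecular identifiers mark single molecules.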

Additional observations from a re-analysis of the deposited data

Results flagged for a closer look

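For 22 carriers the change with resistance differed between the lines by limma's test of the interaction of line and resistance (adjusted p under 0.05). The difference, Huh7 minus HepG2 on the log2(FPKM + 1) scale, was positive for SLC16A5 (2.60), SLC22A15 (2.13), SLCO2A1 (2.00), SLC22A9 (1.68), SLC10A4 (1.29), SLC22A11 (1.04), SLC29A1 (0.99), SLC22A18 (0.91), SLC16A6 (0.83), SLC29A2 (0.80), SLC22A31 (0.71), SLC29A3 (0.59) and SLC22A5 (0.36). It was negative for SLC16A10 (-2.69), SLC16A4 (-1.90), SLC16A7 (-1.42), SLC16A9 (-1.24), SLC10A1 (-0.87), SLC10A7 (-0.78), SLC22A3 (-0.73), SLCO4A1 (-0.61) and SLC10A5 (-0.60). SLC16A7, SLC16A9, SLC10A4 and SLCO2A1 lay at or below 0.115 FPKM in every HepG2 sample, and SLC22A11 and SLCO4A1 at or below 0.179 FPKM in every Huh7 sample, so on this scale their differences largely restate the change in the other line. The adjusted p was between 3.88e-07 and 0.0487. These 22 are 62.9% of the carriers tested, against 56.3% of all genes, so the share lies near the background. Groups of 3 samples give no test for a sample far from the others.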

How the results depend on the processing

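Under removal of the GC trend, alone or with the replicate block, 1 carrier was called higher and 1 lower in Huh7 cells (4 and 6 in the fit reported). With no fold limit, 13 were higher in Huh7 and 3 higher in HepG2 cells (4 and 1 with it), and 10 of 22 differences between the lines were beyond 1. The cause of the GC trend was not tested. Leaving out 1 sample gave 2 to 5 carriers called higher and 6 to 6 lower in Huh7 cells, 0 to 1 higher and 1 to 4 lower in HepG2 cells, 17 to 22 differing between the lines, and 13 to 16 between the parental lines. Without the third resistant Huh7 sample 2 were called higher, since SLC10A4 was no longer tested and SLC22A18 fell short of the fold limit. Without any one resistant HepG2 sample SLC16A10, and without any one parental HepG2 sample SLC22A9, SLC22A15 and SLCO4C1, were no longer tested, which gives 0 higher and 1 lower, because too few samples reached 1 FPKM. Between the parental lines 13 of 20 were called without the third parental Huh7 or the second parental HepG2 sample.

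The sign turned for SLCO1B3 in Huh7 cells without the GC trend (0.64), for SLC10A5 and SLC10A7 in the difference between lines without it (0.22 and 0.16), each the same with the block, and for SLC10A1 in HepG2 cells with upper-quartile scaling (-0.033), median-ratio scaling (-0.0508) and without the GC trend (-0.0512). Leaving out 1 HepG2 sample also turned SLC10A1 (-0.1004 to 0.0913) and SLC29A1 (-0.2759 to 0.0669), neither of which was called. The difference between lines missed the threshold in 5 of the 12 fits without 1 sample for SLC10A5, in 5 for SLC22A5, in 8 for SLC29A3 and in 9 for SLCO4A1, and with limma-voom for SLC16A7, SLC16A9 and SLCO4A1 (adjusted p = 0.122, 0.107 and 0.314). It was also missed without the GC trend for SLC16A7 (-0.36, adjusted p = 0.113) and SLC29A3 (0.24, adjusted p = 0.107), without the filter for SLC29A3 (adjusted p = 0.0791), with median-ratio scaling for SLC10A5 (adjusted p = 0.0592), and for SLCO4A1 at a pseudocount of 0.1, without the filter and with upper-quartile or median-ratio scaling (adjusted p = 0.127, 0.067, 0.0725 and 0.0944). Median-ratio scaling moved the median of all genes from -0.155 to -0.026 in the difference between lines and from 0.187 to 0.046 between the parental lines.

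Same-numbered deviations correlated at 0.084, 0.062 and -0.228 in Huh7 and 0.246, 0.438 and -0.011 in HepG2 cells. Differently numbered ones ran from -0.33 to 0.28 in Huh7 and from -0.42 to 0.21 in HepG2 cells. These values do not settle whether the replicate numbers pair the samples. With the replicate block, 4 carriers were called higher and 6 lower in Huh7, 1 and 4 in HepG2 cells, and 22 differed between the lines, as without it. Carriers under 1 FPKM rest on few reads, which limits what could be detected.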
